A study of Homo sapiens with 12 samples.

Results

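The genes described here build and drive the motile cilium and the sperm flagellum, and they were chosen by name. They are the rows of both gene expression tables named as axonemal dynein heavy chains (DNAH), dynein intermediate and light chains (DNAI1, DNAI2, DNAL1, DNAL4, DNALI1), dynein assembly factors (DNAAF1 to DNAAF3), radial spoke proteins (RSPH) or tektins (TEKT). To these were added the central pair genes SPAG6, SPAG16, SPAG17, SPEF1, SPEF2 and HYDIN, with FOXJ1, STPG1, CCDC39, CCDC40, CCDC103, CCDC114 and ARMC4. The rule found 44 genes, out of 31911 genes with counts in the table of CHD4 silencing and 33154 in the table of CHD3 silencing. The rule uses gene names alone.

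A motile cilium beats because rows of dynein motors, the outer and inner arms, walk along a ring of microtubule doublets and make them slide. Radial spokes and a central pair of microtubules control the beat, tektins line the inside of the doublets, and assembly factors fold the dyneins in the cytoplasm before transport. The genes are switched on as a group in airway, ependymal and oviduct epithelium and in spermatids, where FOXJ1 and the RFX family are the best known transcription factors. Pigment cells are not known to carry motile cilia.

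501Mel, an established human melanoma cell line, was transfected with a pool of siRNAs against CHD4 (siCHD4), against CHD3 (siCHD3) or with a control siRNA (siCtrl), and RNA was collected after 72 h. CHD4 and CHD3 are the alternative ATPase subunits of the NuRD chromatin remodelling complex, and the design asks which genes change when each one is depleted. cDNA amplified from 6 ng of RNA was sequenced in 12 libraries, 3 in each of 4 groups. The siCHD4 libraries are deposited in one table with siCtrl 1 to 3, and the siCHD3 libraries in another table with siCtrl 4 to 6, so no control library is shared. Every group received the same transfection reagent, all cells come from 1 line, and each gene was silenced with 1 pool, so the effect of a single siRNA cannot be read from these data. The study calls its replicates biological, and the labels do not say how the cultures of a group were separated. The p-values measure the spread between these libraries.

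Depth in the siCHD4 table lay between 44966728 and 102005319 counts per library, and in the siCHD3 table between 38573214 and 57219281. CHD4 fell to 12.2% of its siCtrl mean in siCHD4, and CHD3 fell to 20.3% in siCHD3, where CHD4 was at 170% (log2 fold change 0.77, edgeR adjusted p = 0.00132). siCtrl 3 stands apart from siCtrl 1 and 2 in composition, with a normalization factor of 0.816 against 0.970 to 1.07 in the other 11 libraries. All 8 melanocyte markers were detected, with summed levels of 15100 to 19900 CPM (counts per 1000000 counts of the library) in siCtrl 1 to 3 and 13800 to 14500 in siCtrl 4 to 6. Of markers of a ciliated airway epithelium, SCGB1A1 had no count in the 12 libraries and EPCAM averaged 0.0396 CPM in siCtrl 1 to 3 and 0.0449 in siCtrl 4 to 6. Others of that list were present in siCtrl 1 to 3, with TUBB4A at 698 CPM, KRT8 at 4.79, KRT18 at 4.37, KRT7 at 1.84 and CAPS at 1.07. The summed level of 8 testis germ cell markers stayed at or below 0.130 CPM in the siCHD4 table and 0.640 CPM in the siCHD3 table, with no count for PRM2, ODF1 and AKAP4 in either table.

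The promoters are shown first, because RFX proteins and FOXJ1 are known to act on many of these genes in ciliated cells. The RefSeq table of promoters (GRCh38.p14, 250 bases before to 50 bases after each start) held 41 promoters for 35 of the 44 genes. The letters searched, on either strand, were GTTGCC and GTTACC, which make up one side of the RFX binding site, and TGTTTAC, the core bound by forkhead factors, and none of the 3 contains another. GTTGCC was present in 16 of the 41 promoters (39.0%) and in 4279 of all 35116 promoters in the table (12.2%). GTTACC was present in 6 of the 41 (14.6%, against 6.46% of all promoters) and TGTTTAC in 2 (4.88%, against 3.42%). SPAG16, DNAH1 and DNAI2 are shown because they hold the most matches, which are in capitals.
SPAG16, chr2:213284214-213284513, plus strand: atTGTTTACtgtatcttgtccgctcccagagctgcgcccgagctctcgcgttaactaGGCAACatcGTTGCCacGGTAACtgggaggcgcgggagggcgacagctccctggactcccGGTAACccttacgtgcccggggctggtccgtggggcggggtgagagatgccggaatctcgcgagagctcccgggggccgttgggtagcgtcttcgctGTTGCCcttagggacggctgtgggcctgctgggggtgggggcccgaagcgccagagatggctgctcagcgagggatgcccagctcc
DNAH1, chr3:52316069-52316368, plus strand: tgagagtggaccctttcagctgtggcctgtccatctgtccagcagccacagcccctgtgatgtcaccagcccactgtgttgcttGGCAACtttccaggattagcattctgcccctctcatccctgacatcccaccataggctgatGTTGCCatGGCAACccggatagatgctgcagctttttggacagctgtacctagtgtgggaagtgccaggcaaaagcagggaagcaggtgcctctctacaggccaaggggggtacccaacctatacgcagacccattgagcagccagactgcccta
DNAI2, chr17:74273984-74274283, plus strand: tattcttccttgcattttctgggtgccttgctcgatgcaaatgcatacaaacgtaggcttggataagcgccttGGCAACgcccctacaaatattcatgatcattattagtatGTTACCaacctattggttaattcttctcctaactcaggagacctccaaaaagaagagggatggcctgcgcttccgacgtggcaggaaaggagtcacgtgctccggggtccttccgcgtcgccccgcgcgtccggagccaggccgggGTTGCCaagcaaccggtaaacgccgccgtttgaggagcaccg
A match is a description of the letters and not of binding. DNAH11, DNALI1, TEKT5 and DNAL4 are shown because they are the genes whose level was called higher after one of the silencings, and their promoters hold none of the 3 letter strings.
DNAH11, chr7:21542789-21543088, plus strand: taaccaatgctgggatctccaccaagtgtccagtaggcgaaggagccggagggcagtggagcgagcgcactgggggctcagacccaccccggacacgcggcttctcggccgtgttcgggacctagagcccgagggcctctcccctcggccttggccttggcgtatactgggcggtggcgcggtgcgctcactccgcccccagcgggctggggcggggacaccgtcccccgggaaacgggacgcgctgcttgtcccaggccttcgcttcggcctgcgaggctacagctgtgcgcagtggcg
DNALI1, chr1:37556690-37556989, plus strand: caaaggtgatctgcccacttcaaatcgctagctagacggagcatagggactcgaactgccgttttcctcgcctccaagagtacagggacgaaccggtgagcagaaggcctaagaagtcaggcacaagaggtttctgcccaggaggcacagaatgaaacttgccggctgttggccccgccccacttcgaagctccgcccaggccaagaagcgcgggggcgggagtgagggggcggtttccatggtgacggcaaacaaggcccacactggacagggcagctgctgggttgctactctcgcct
TEKT5, chr16:10694881-10695180, minus strand: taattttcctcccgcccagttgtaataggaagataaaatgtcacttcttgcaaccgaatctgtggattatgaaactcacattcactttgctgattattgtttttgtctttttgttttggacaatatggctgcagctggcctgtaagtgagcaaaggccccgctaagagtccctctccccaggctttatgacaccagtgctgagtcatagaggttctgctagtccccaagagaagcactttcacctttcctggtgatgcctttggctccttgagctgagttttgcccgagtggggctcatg
DNAL4, chr22:38794094-38794393, minus strand: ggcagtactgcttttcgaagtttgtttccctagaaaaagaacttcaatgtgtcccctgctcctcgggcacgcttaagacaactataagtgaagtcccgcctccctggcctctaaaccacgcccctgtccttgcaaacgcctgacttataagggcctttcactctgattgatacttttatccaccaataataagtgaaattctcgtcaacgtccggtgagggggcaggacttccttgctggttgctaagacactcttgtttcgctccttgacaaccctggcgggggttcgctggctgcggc
The promoters of SPEF1, RSPH3, DNAH7, DNAL1 and STPG1, the other genes with a promoter in the table that were called in a comparison, hold none of the 3 strings either.

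In control cells most of the genes averaged under 1 CPM, and part of them were at or near the detection limit. The mean level was at least 5 CPM for 7 of the 44 genes in siCtrl 1 to 3 and for 6 in siCtrl 4 to 6, and at least 1 CPM for 12 and 13. It was under 0.1 CPM for 17 and 16, and 3 genes (CCDC39, DNAI2 and RSPH6A) had no count in siCtrl 1 to 3. The library sizes behind CPM were scaled with edgeR's trimmed mean of M-values (TMM). FOXJ1, the transcription factor that directs the programme, had 0, 2 and 0 counts in siCtrl 1 to 3 and 2, 0 and 0 in siCtrl 4 to 6, so it stayed at or under the floor of 3 counts in each group.

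**Figure D1:**
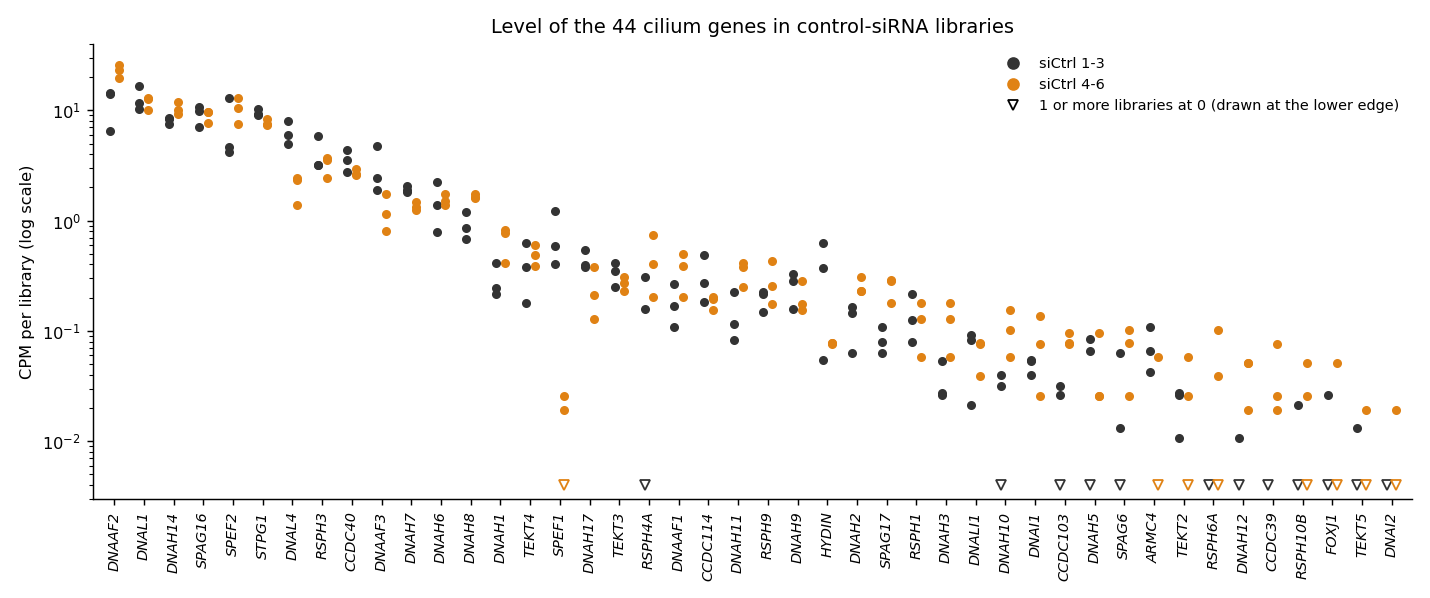
CPM (log axis) of each of the 44 genes in the 6 control-siRNA libraries, 1 point per library, ordered by mean. The level runs from above 10 CPM for DNAAF2 and DNAL1 to single counts for FOXJ1, TEKT5 and DNAI2, and SPEF1 and DNAL4 lie lower in siCtrl 4 to 6 than in siCtrl 1 to 3.

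The order between genes depends on the length that counts are divided by. With the lengths in the deposited tables, the highest levels per kilobase in siCtrl 1 to 3 were those of DNAL1, STPG1, DNAH14, DNAL4 and SPAG16, in that order. Those lengths are far shorter than the merged exons of the GENCODE annotation for several genes, for example 0.622 against 8.884 kb for DNAL1 and 0.583 against 16.147 kb for DNAH11. On merged exon lengths, an alternative chosen after seeing the data, DNAAF2 came first (3.92 CPM per kb), before DNAL4 (2.60), DNAL1 (1.44), STPG1 (1.12) and SPAG16 (1.12). DNAAF2 was also first in siCtrl 4 to 6 on that scale, at 7.63 CPM per kb. Among the first 9 genes on both scales were DNAL1, DNAL4, STPG1, SPAG16, SPEF2, DNAH14, DNAAF2 and DNAAF3.

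After CHD4 silencing, 3 of the genes were called higher (DNAH11, DNALI1 and TEKT5) and 2 lower (DNAAF3 and STPG1). A call is an adjusted p under 0.05 over all genes tested, by edgeR's quasi-likelihood test, with an absolute log2 fold change over 1. Of the 44 genes 30 passed edgeR's filter on low counts, and over all 17018 genes tested 4.80% were called higher and 1.65% lower. All 3 genes called higher are among 5 that had every siCHD4 library and at most 1 siCtrl library at the filter's level of 0.121 CPM (siCtrl 2 for DNAH11, none for the other 4). The filter thus favoured genes high in siCHD4, and the number called among the 30 is not evidence about the group. RSPH9 passed the other way, with its 3 siCtrl libraries and 0 siCHD4 libraries at that level. With no filter, 3 of the 44 genes were called higher and 3 lower, beside 1095 higher and 411 lower of all 31911 genes. The median log2 fold change of the 30 was -0.20, with 13 positive and 17 negative, beside -0.06 over all genes tested.

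After CHD3 silencing, DNAL4 alone was called higher, at a background of 3.89% of the 16115 genes tested, and 22 of the 44 genes passed the filter. By edgeR 0 of the 22 were called lower, at a background of 4.33%, with 5 lower at an unadjusted p under 0.05 and 0 by DESeq2. The median log2 fold change of the 22 was 0.29, with 14 positive and 8 negative, beside -0.02 over all genes tested. For 2 genes, DNAH9 and DNAH17, every siCHD3 library and 1 siCtrl library reached the filter's level of 0.232 CPM. For DNAH11 all 3 siCtrl libraries and 0 siCHD3 libraries did, and for DNAAF1 and RSPH4A 2 siCtrl libraries and 1 siCHD3 library, so the filter bears on direction in both senses.

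The responses to the silencings were compared in 1 model over the 12 libraries, in which the change in siCHD3 is subtracted from the change in siCHD4. Of 28 genes tested, 2 were called higher (DNAH11 and DNALI1) and 7 lower (SPEF1, DNAL4, DNAAF3, RSPH3, DNAL1, DNAH7 and STPG1). Over all 17357 genes tested, 6.10% were called higher and 5.57% lower. These 9 calls held when any 1 of the 12 libraries was left out. DNALI1 reached the filter's level of its table in the siCHD4 libraries alone, so the filter favoured a positive difference for it. Each silencing has its own control libraries, and where the control sets differ in level, the tables and the silencings cannot be told apart in such a difference, so the level in each set is given with each gene.

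**Figure D2:**
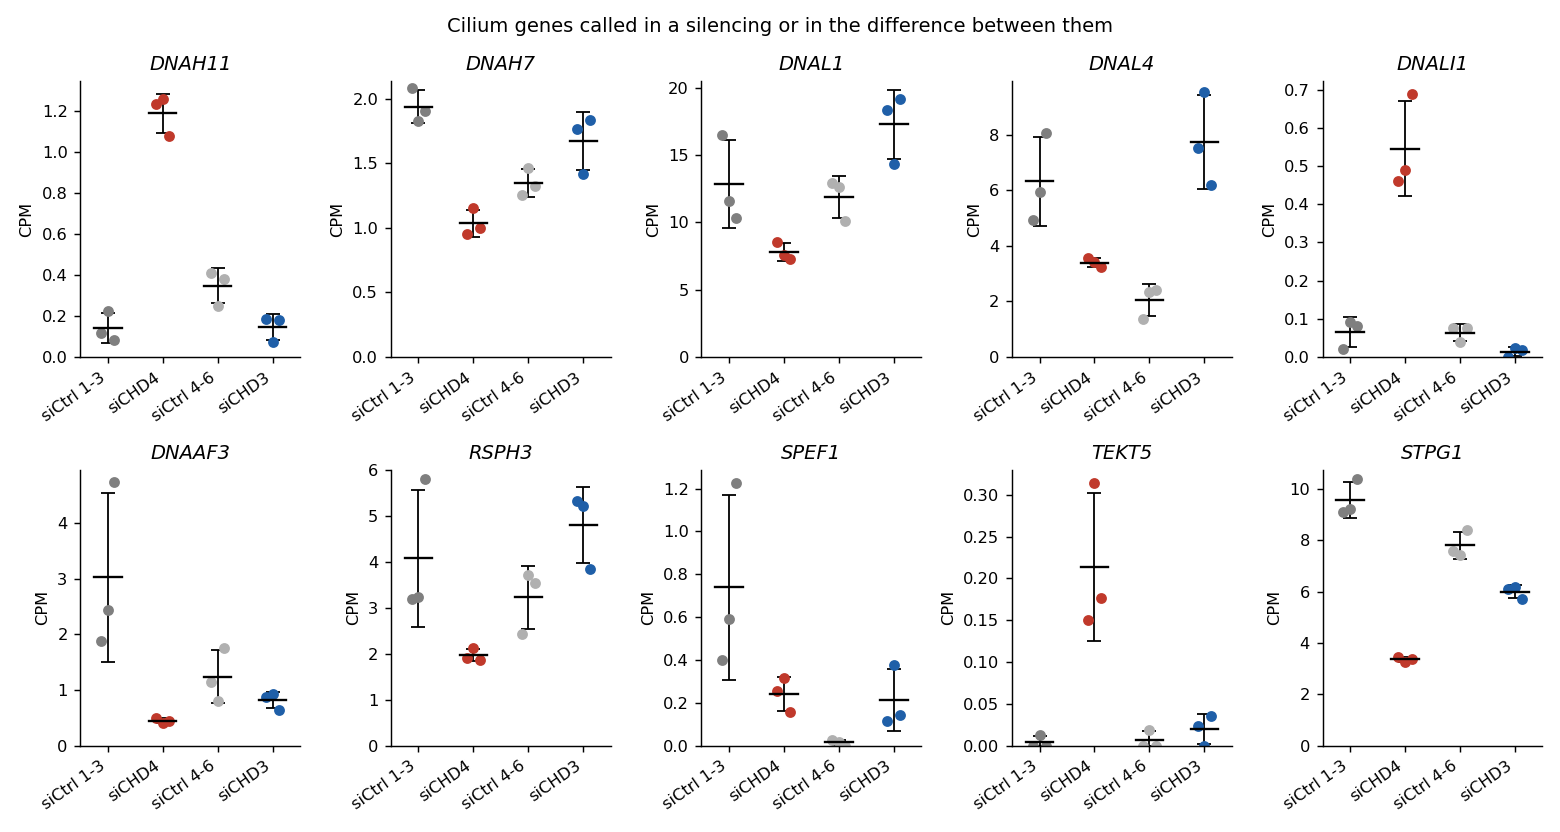
CPM of the 10 genes called in either silencing or in the difference, 1 point per library, with the mean (line) and SD (bars, cut at 0) of each group of 3. DNAH11, DNALI1 and TEKT5 are high in siCHD4 alone, STPG1 and DNAAF3 are lowest in siCHD4, and DNAL4 is low in siCtrl 4 to 6.

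Among the outer arm heavy chains, the motors of the outer dynein row, DNAH11 responded to CHD4 silencing. DNAH11 (chr7:21582657-21941457, plus strand, hg19, in the GENCODE annotation) had 0.116, 0.224 and 0.0818 CPM in siCtrl 1 to 3 and 1.23, 1.26 and 1.08 CPM in siCHD4. The groups did not overlap, and the counts behind these values were 31 in the siCtrl libraries and 331 in the siCHD4 libraries. The log2 fold change was 3.01 ± 0.37 (SE, n = 3 per group, edgeR adjusted p = 0.00475), and it remained between 2.81 and 3.5 when each library was left out. In the CHD3 experiment DNAH11 was at 0.410, 0.251 and 0.383 CPM in siCtrl 4 to 6 and at 0.186, 0.0709 and 0.180 CPM in siCHD3. That change, -1.20 ± 0.48, missed the threshold (edgeR adjusted p = 0.0948), and the difference between the responses was 4.21 ± 0.59 (edgeR adjusted p = 0.000738). CDCA7L, which overlaps 5.20% of the exon bases of DNAH11 on the opposite strand, averaged 97.6 CPM in siCtrl 1 to 3 and 71.9 CPM in siCHD4 (-0.44, edgeR adjusted p = 0.313).

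The other outer arm heavy chains gave no call. DNAH8, a heavy chain known from sperm, averaged 0.907 CPM in siCtrl 1 to 3 and 0.471 in siCHD4, without overlap, which is -0.95 on the log2 scale (edgeR adjusted p = 0.137). Without siCtrl 3 it was called lower (-1.08, edgeR adjusted p = 0.0133), as was the difference between its responses (-1.11, edgeR adjusted p = 0.0383, against 0.112 with it). In siCHD3 DNAH8 was at 1.71 against 1.66 CPM. DNAH17, another heavy chain of sperm, had log2 fold changes of 0.30 in siCHD4 and 1.09 in siCHD3 (edgeR adjusted p = 0.599 and 0.104), and in siCHD3 it was called higher without siCtrl 6 (1.55, edgeR adjusted p = 0.0478). DNAH9, the heavy chain of the distal part of airway cilia, had -0.19 and 1.03 (edgeR adjusted p = 0.835 and 0.135). DNAH5, whose loss is a frequent cause of primary ciliary dyskinesia, was too low to be tested, with 13 and 21 counts in siCtrl 1 to 3 and siCHD4, and 7 and 8 in siCtrl 4 to 6 and siCHD3.

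Of the inner arm heavy chains, the motors that shape the waveform, 6 were tested in siCHD4 and none was called by edgeR there, with an unadjusted p under 0.05 for 3, and none by DESeq2. DNAH10 and DNAH3 entered that test through the siCHD4 libraries alone, so the filter set their sign. DNAH7 (chr2:196602427-196933561, minus strand, hg19) had 2.08, 1.83 and 1.91 CPM in siCtrl 1 to 3 and 0.956, 1.15 and 0.996 CPM in siCHD4. The groups were well separated, and the fold change of -0.91 ± 0.21 passed the p threshold (edgeR adjusted p = 0.0423) but not the fold threshold. In siCHD3 it was at 1.67 ± 0.224 CPM against 1.35 ± 0.107 in siCtrl 4 to 6 (SD, n = 3), and the difference between the responses was -1.21 ± 0.28 (edgeR adjusted p = 0.0125).

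DNAH10 and DNAH3 were near 0 in control cells and higher in each siCHD4 library. DNAH10 had 0.0317, 0.0395 and 0 CPM in siCtrl 1 to 3 and 0.127, 0.221 and 0.130 CPM in siCHD4, with 6 and 44 counts. DNAH3 had 0.0528, 0.0263 and 0.0273 CPM in siCtrl 1 to 3 and 0.127, 0.198 and 0.158 CPM in siCHD4, with 8 and 45 counts. Neither gene's groups overlapped, and neither passed the test, with log2 fold changes of 2.43 and 2.05 (edgeR adjusted p = 0.0672 and 0.0520). Both were called higher without siCtrl 3 (edgeR adjusted p = 0.0233 and 0.0283), and both reached the filter only through the siCHD4 libraries. In siCHD3 DNAH10 had 8 counts against 13 in siCtrl 4 to 6, and DNAH3 had 6 against 15. Neither was tested for the difference between the responses in the fit over the 12 libraries, where DESeq2 called both higher (3.39 and 3.62, DESeq2 adjusted p = 0.0457 and 0.0277). For DNAH3 edgeR also called it higher without siCtrl 3 (3.40, edgeR adjusted p = 0.0270), siCtrl 5 or siCHD3 2.

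DNAH6 had close fold changes in both experiments. It had 2.22, 1.38 and 0.791 CPM in siCtrl 1 to 3 and 2.32, 2.50 and 2.57 in siCHD4, which is 0.73 ± 0.35 on the log2 scale (edgeR adjusted p = 0.279). In siCtrl 4 to 6 it had 1.51, 1.74 and 1.38 CPM and in siCHD3 2.62, 1.92 and 3.03, for 0.71 ± 0.26 (edgeR adjusted p = 0.0674). The difference between the responses was 0.02 ± 0.44, an estimate too wide to show that they were alike. DNAH1 had 0.40 in siCHD4 and -0.30 in siCHD3 (edgeR adjusted p = 0.564 and 0.596), and DNAH2 had 0.49 in siCHD4 (edgeR adjusted p = 0.627). DNAH2 was not tested in siCHD3, where it had 18 counts against 33. The ratio per TMM-scaled library size was 0.504 (95% exact interval 0.267 to 0.921, counting error only). DNAH12 had at most 5 counts in any group.

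DNAH14, a heavy chain not placed firmly in either arm, was the most highly counted heavy chain in these cells. It had 8.39, 7.55 and 8.51 CPM in siCtrl 1 to 3 and 7.05, 5.82 and 5.72 in siCHD4 (log2 fold change -0.39 ± 0.19, edgeR adjusted p = 0.282). In siCtrl 4 to 6 it had 11.9, 10.0 and 9.21 CPM and in siCHD3 13.8, 13.8 and 12.7 (0.38 ± 0.17, edgeR adjusted p = 0.138). The groups did not overlap in either experiment, and the responses differed by -0.76 ± 0.22 (edgeR adjusted p = 0.0401), under the fold threshold.

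The intermediate and light chains, which anchor and tune the motors, held calls in both experiments. DNALI1 (chr1:38022520-38032458, plus strand, hg19), a light chain of inner arms, had 0.0211, 0.0922 and 0.0818 CPM in siCtrl 1 to 3 and 0.461, 0.489 and 0.689 CPM in siCHD4. Every siCHD4 library lay above every control library, and the summed counts were 12 and 156. The log2 fold change was 3.15 ± 0.52 (edgeR adjusted p = 0.0125). The call was lost without siCHD4 1, 2 or 3 or without siCtrl 2, at edgeR adjusted p-values up to 0.0673, while the fold change stayed between 2.62 and 3.67. In siCtrl 4 to 6 DNALI1 had 8 counts and in siCHD3 it had 2. The difference between the responses was 5.13 ± 1.04 (edgeR adjusted p = 0.00617), a fitted value that depends on the prior count because of those 2 counts. Of the 4 groups only siCHD4 had libraries at the filter's level, so the filter favoured the sign of the change and of the difference.

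DNAL4 (chr22:39174513-39190203, minus strand, hg19), an outer arm light chain, was the gene called in siCHD3. It had 1.38, 2.33 and 2.42 CPM in siCtrl 4 to 6 and 7.51, 9.53 and 6.18 CPM in siCHD3. The log2 fold change was 1.91 ± 0.26 (n = 3 per group, edgeR adjusted p = 0.000326), between 1.68 and 2.04 when each library was left out, and the call was kept each time. In siCtrl 1 to 3 DNAL4 had 4.94, 5.95 and 8.07 CPM and in siCHD4 3.56, 3.41 and 3.23, without overlap (-0.89 ± 0.23, edgeR adjusted p = 0.0645), and it was called lower there without siCtrl 1 (-1.03, edgeR adjusted p = 0.0304). The responses differed by -2.79 ± 0.35 (edgeR adjusted p = 0.000366). The control sets also differed, with means of 6.32 CPM in siCtrl 1 to 3 and 2.05 CPM in siCtrl 4 to 6, and the siCHD3 mean of 7.74 CPM lay within 1 SD of the first set.

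DNAL1 (chr14:74111578-74170435, plus strand, hg19), the light chain that binds the outer arm motor domain, had fold changes of opposite sign. It had 16.5, 11.6 and 10.4 CPM in siCtrl 1 to 3 and 8.52, 7.59 and 7.29 in siCHD4 (-0.72 ± 0.23, edgeR adjusted p = 0.122). It had 12.9, 12.6 and 10.1 CPM in siCtrl 4 to 6 and 18.3, 14.4 and 19.2 in siCHD3 (0.54 ± 0.18, edgeR adjusted p = 0.0470), past the p threshold and not the fold threshold. Neither pair of groups overlapped, the control means were 12.8 and 11.9 CPM, and the responses differed by -1.25 ± 0.29 (edgeR adjusted p = 0.0129). The intermediate chains DNAI1 and DNAI2 were not tested. DNAI1 had 8 to 15 counts in each group, and DNAI2 had 0 counts in siCtrl 1 to 3 and 9 in siCHD4. With a floor of 3 counts for the control group, the DNAI2 ratio per TMM-scaled library size was 2.22. The lower bound of its exact interval was 1.46 (counting error only).

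**Figure D3:**
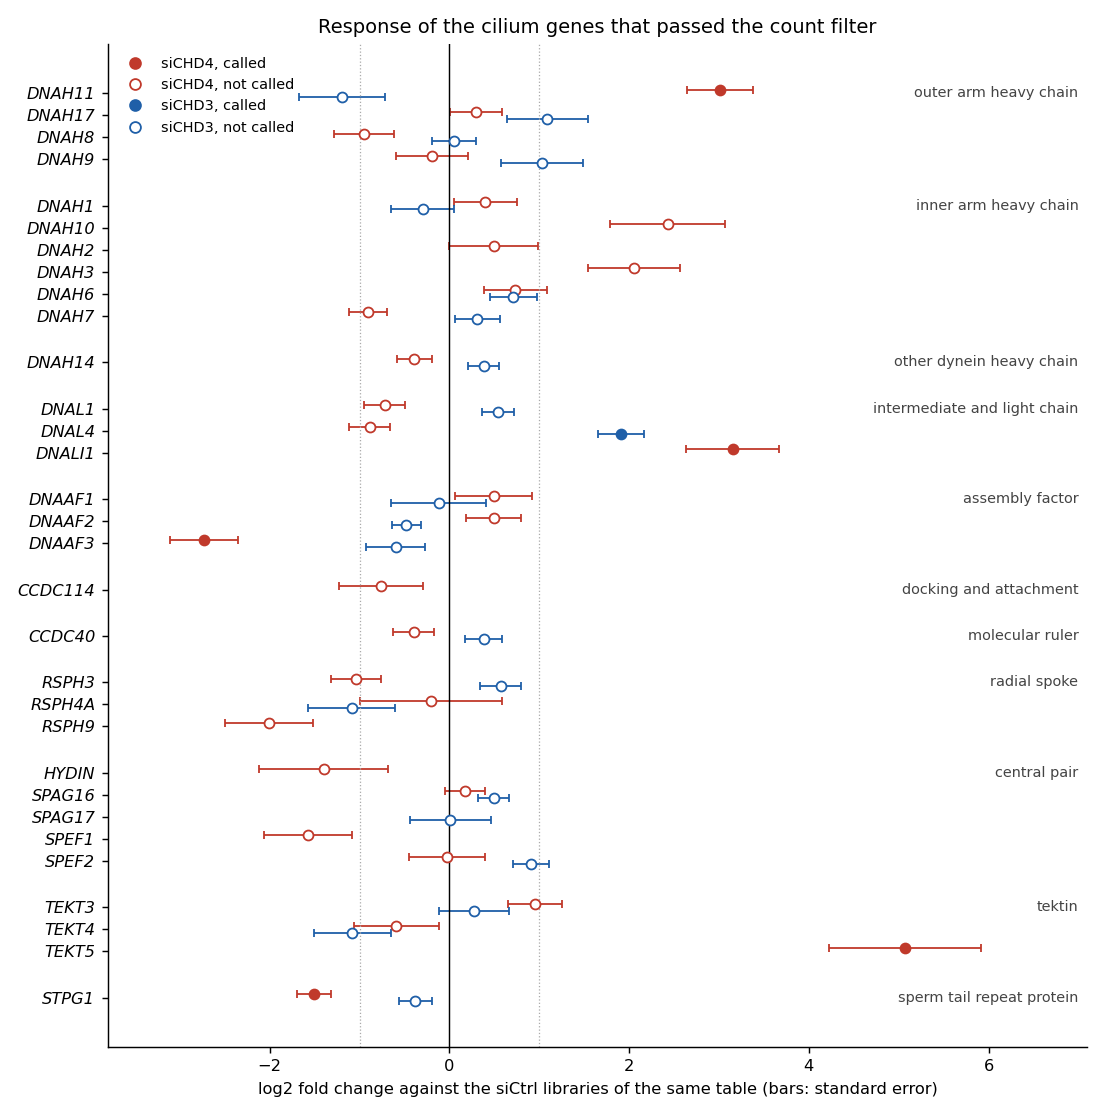
log2 fold change against the siCtrl libraries of the same table, with its standard error, for the genes that passed the count filter, grouped by role. siCHD4 is in red and siCHD3 in blue, filled points are called, and dotted lines mark the fold threshold. DNAH11, DNALI1 and TEKT5 lie on the right and DNAAF3 and STPG1 on the left in siCHD4, and DNAL4 is the filled point of siCHD3.

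The assembly factors, which work with chaperones to fold dynein arms, included a call in siCHD4. DNAAF3 (chr19:55670029-55678090, minus strand, hg19) had 1.89, 2.44 and 4.74 CPM in siCtrl 1 to 3 and 0.495, 0.407 and 0.447 CPM in siCHD4. The siCHD4 libraries were close together and far below the spread-out controls, and the log2 fold change was -2.73 ± 0.38 (edgeR adjusted p = 0.00718). Without siCtrl 3 it was -2.24 and was still called, and without siCHD4 1 the call was lost (edgeR adjusted p = 0.0592). In siCtrl 4 to 6 DNAAF3 had 1.15, 0.810 and 1.76 CPM and in siCHD3 0.881, 0.922 and 0.649 (-0.60 ± 0.33, edgeR adjusted p = 0.235). The responses differed by -2.11 ± 0.51 (edgeR adjusted p = 0.0152), with control means of 3.02 and 1.24 CPM. An antisense gene, DNAAF3-AS1, covers 27.2% of the exon bases of DNAAF3, and the sources used here do not say whether counting used the strand, so the reads cannot be told apart.

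DNAAF2, which binds heat shock chaperones, had 14.2, 14.4 and 6.52 CPM in siCtrl 1 to 3 and 16.9, 16 and 16.3 in siCHD4 (0.49 ± 0.31, edgeR adjusted p = 0.417). It had 25.6, 23.1 and 19.6 CPM in siCtrl 4 to 6 and 16, 15.2 and 17.7 in siCHD3 (-0.48 ± 0.16, edgeR adjusted p = 0.0518). The groups did not overlap in either experiment, and the difference of 0.97 ± 0.36 missed the threshold (edgeR adjusted p = 0.1) but was called without siCtrl 1 (1.11, edgeR adjusted p = 0.0475). DNAAF1, a leucine-rich repeat protein, had 40 and 75 counts in the siCHD4 table (0.49 ± 0.43) and 49 and 47 in the siCHD3 table (-0.12 ± 0.53), and in each table the groups overlapped.

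The docking genes, whose proteins fix outer arms to the doublet, were low. CCDC114 averaged 0.317 CPM in siCtrl 1 to 3 and 0.177 in siCHD4 (-0.76, edgeR adjusted p = 0.4), with overlap. ARMC4 and CCDC103 had at most 16 counts in any group. GFAP shares 57.3% of the exon bases of CCDC103 on the opposite strand, so even those counts are uncertain. Of the ruler genes, whose coiled coils set the repeat of arms and spokes along the doublet, CCDC40 had 2.75, 3.57 and 4.39 CPM in siCtrl 1 to 3 and 2.63, 2.78 and 2.65 in siCHD4 (-0.40 ± 0.23, edgeR adjusted p = 0.356). In siCtrl 4 to 6 it had 2.59, 2.93 and 2.63 CPM and in siCHD3 3.48, 3.55 and 3.61 (0.38 ± 0.21, edgeR adjusted p = 0.219). CCDC39, its partner in the ruler, had at most 5 counts in any group, and the identifier under that name in the tables is annotated in GENCODE as a lncRNA locus that shares 75.8% of its exon bases with CCDC39.

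The 3 radial spoke genes tested in siCHD4 all had negative fold changes, and none passed the test by edgeR in that comparison (unadjusted p under 0.05 for 2 of the 3). RSPH3 (chr6:159393903-159421234, minus strand, hg19), a protein of the spoke stalk, had 3.19, 3.23 and 5.81 CPM in siCtrl 1 to 3 and 1.91, 2.13 and 1.87 in siCHD4 (-1.04 ± 0.28, edgeR adjusted p = 0.0738). DESeq2 called it lower (-1.01, adjusted p = 0.0221), as did edgeR without siCtrl 1 (-1.18, edgeR adjusted p = 0.0451). It had 2.43, 3.70 and 3.55 CPM in siCtrl 4 to 6 and 5.33, 5.23 and 3.84 in siCHD3 (0.57 ± 0.23, edgeR adjusted p = 0.108). Neither pair of groups overlapped, and the responses differed by -1.59 ± 0.36 (edgeR adjusted p = 0.0113).

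RSPH9, a protein of the spoke head, had lower values in the silenced libraries of both experiments. It had 0.148, 0.224 and 0.218 CPM in siCtrl 1 to 3 and 0.0461, 0.0698 and 0.0279 in siCHD4, with 39 and 13 counts and no overlap (-2.01 ± 0.49, edgeR adjusted p = 0.0506). It had 0.256, 0.174 and 0.434 CPM in siCtrl 4 to 6 and 0.0464, 0.118 and 0.0541 in siCHD3, with 36 and 10 counts and no overlap. It was under the filter there, with a ratio per TMM-scaled library size of 0.257 (95% exact interval 0.114 to 0.528, counting error only). It was called lower in siCHD4 without siCtrl 3 (-1.93, edgeR adjusted p = 0.0238). In siCHD3 it was called lower without siCHD3 2 or siCtrl 5 (edgeR adjusted p = 0.0319 and 0.0373). The fit over the 12 libraries called it lower in both (edgeR adjusted p = 0.0214 and 0.0358), and the responses differed by -0.04 ± 0.59. MRPS18A overlaps 26.7% of the exon bases of RSPH9 on the opposite strand.

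RSPH4A, another spoke head protein, had overlapping groups in both tables, with -0.21 ± 0.79 in siCHD4 and -1.09 ± 0.48 in siCHD3 (edgeR adjusted p = 0.905 and 0.128), and it was called lower in siCHD3 without siCtrl 4 (-1.45, edgeR adjusted p = 0.0381). RSPH1 was untested, with 26 counts in siCtrl 1 to 3 and 9 in siCHD4, and 15 and 18 in the siCHD3 table. Its siCHD4 ratio per TMM-scaled library size was 0.256 (95% exact interval 0.106 to 0.564). RSPH6A and RSPH10B had at most 6 counts in any group.

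Of the central pair genes, SPEF1 gave the lowest difference between the experiments. SPEF1 (chr20:3758151-3762095, minus strand, hg19), a microtubule-bundling protein, had 0.401, 0.593 and 1.23 CPM in siCtrl 1 to 3 and 0.253, 0.314 and 0.158 in siCHD4 (-1.57 ± 0.49, edgeR adjusted p = 0.108). It had 1, 1 and 0 counts in siCtrl 4 to 6, where it was under the filter, and 29 counts in siCHD3. The ratio per TMM-scaled library size was 13.4 (lower bound of the 95% exact interval 3.39, counting error only). The responses differed by -5.14 ± 1.03 (edgeR adjusted p = 0.00582), but the control sets were at 38, 45 and 45 counts and at 1, 1 and 0 counts. The siCHD3 mean of 0.213 CPM was lower than that of siCtrl 1 to 3 (0.740 CPM) and close to that of siCHD4 (0.242 CPM). Without siCtrl 1 SPEF1 was called lower in siCHD4 (-1.87, edgeR adjusted p = 0.0465). With no filter on low counts it was called lower in siCHD4 (-1.53, edgeR adjusted p = 0.0410) and higher in siCHD3 (3.58, edgeR adjusted p = 0.00176).

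SPEF2, which is needed for sperm tails and binds the central pair, had 12.9, 10.4 and 7.58 CPM in siCtrl 4 to 6 and 19.4, 17.3 and 21.2 in siCHD3. Its fold change of 0.91 ± 0.20 passed the p threshold (edgeR adjusted p = 0.00686) and not the fold threshold, which it crossed without siCtrl 4 (1.08) or siCHD3 2. In siCtrl 1 to 3 it had 4.64, 4.22 and 13.0 CPM, the last in the library that stands apart, and in siCHD4 7.13, 7.36 and 6.72 (-0.03 ± 0.42, edgeR adjusted p = 0.974). SPAG16, which is needed for the stability of the central pair, had 10.8, 9.79 and 7.09 CPM in siCtrl 1 to 3 and 11.2, 10.4 and 9.46 in siCHD4 (0.17 ± 0.22, edgeR adjusted p = 0.718). It had 9.65, 9.74 and 7.70 CPM in siCtrl 4 to 6 and 12.4, 12.6 and 13.1 in siCHD3, without overlap (0.49 ± 0.17, edgeR adjusted p = 0.0564).

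HYDIN, a very large protein of the central pair, had 0.623, 0.369 and 0.0545 CPM in siCtrl 1 to 3 and 0.161, 0.198 and 0.0651 in siCHD4 (-1.40 ± 0.72, edgeR adjusted p = 0.307), and it was called lower without siCtrl 3 (-1.82, edgeR adjusted p = 0.00816). The difference between its responses was -2.99 (edgeR adjusted p = 0.0623) and was called without siCtrl 3 (-3.37, edgeR adjusted p = 0.00412). In the siCHD3 table HYDIN had 10 counts in siCtrl 4 to 6 and 33 in siCHD3. The ratio per TMM-scaled library size was 3.05 (95% exact interval 1.47 to 6.93, counting error only). HYDIN has a near-identical copy in the genome, and reads of the copies may have been split. SPAG17 (0.01 ± 0.45 in siCHD3, untested in siCHD4) and SPAG6 (at most 17 counts in any group) showed overlapping groups in both tables.

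The tektins, filaments inside the doublet, held the call with the highest fitted fold change. TEKT5 (chr16:10721358-10788787, minus strand, hg19), a tektin of sperm flagella, had 0, 1 and 0 counts in siCtrl 1 to 3 and 13, 27 and 19 in siCHD4, or 0.150, 0.314 and 0.177 CPM. The fitted log2 fold change was 5.07 ± 0.85 (edgeR adjusted p = 0.0132) and depends on the prior count. It lay between 4.37 and 7.14 when each library was left out, the highest without siCtrl 2, the control library that holds the count. The ratio of counts per TMM-scaled library size was 43.7 (95% exact interval 7.54 to 1750, counting error only). The call was lost without siCHD4 1, siCHD4 2 or siCtrl 2, at edgeR adjusted p-values up to 0.0660, and in the fit over the 12 libraries TEKT5 was not tested. In siCtrl 4 to 6 TEKT5 had 1 count and in siCHD3 it had 3.

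TEKT3 had 0.348, 0.250 and 0.409 CPM in siCtrl 1 to 3 and 0.703, 0.594 and 0.624 in siCHD4, without overlap (0.95 ± 0.30, edgeR adjusted p = 0.112). Without siCtrl 3 it was called higher (1.1, edgeR adjusted p = 0.0165). In the siCHD3 table its groups overlapped (0.27 ± 0.39). TEKT4, which has near-identical pseudogenes and shares 58.7% of its exon bases with a gene on the opposite strand, had -0.59 ± 0.47 in siCHD4 and -1.08 ± 0.43 in siCHD3 (edgeR adjusted p = 0.523 and 0.0930). TEKT2 had at most 4 counts in any group.

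STPG1 (chr1:24683489-24743424, minus strand, hg19), a protein with sperm-tail PG-rich repeats, fell evenly across the siCHD4 libraries. It had 9.09, 9.23 and 10.4 CPM in siCtrl 1 to 3 and 3.46, 3.26 and 3.39 CPM in siCHD4. The log2 fold change of -1.51 ± 0.19 (edgeR adjusted p = 0.00418) was called in each of the 6 fits that left out a library, between -1.54 and -1.43. STPG1 had 7.58, 7.43 and 8.39 CPM in siCtrl 4 to 6 and 6.10, 6.17 and 5.70 in siCHD3, again without overlap (-0.38 ± 0.18, edgeR adjusted p = 0.149), and the responses differed by -1.11 ± 0.20 (edgeR adjusted p = 0.00345). NIPAL3, which overlaps 1.20% of the exon bases of STPG1 on the opposite strand, rose in siCHD3 (1.08 ± 0.15, edgeR adjusted p = 0.000474) and had -0.37 in siCHD4 (edgeR adjusted p = 0.313). FOXJ1 had 1, 4 and 2 counts in siCHD4 and 0, 0 and 1 in siCHD3, against 0, 2 and 0 and 2, 0 and 0 in their controls. The siCHD4 ratio per TMM-scaled library size was 2.59 with an exact interval from 0.493 to 25.5. No change of this transcription factor was thus detectable at this depth.

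**Figure D4:**
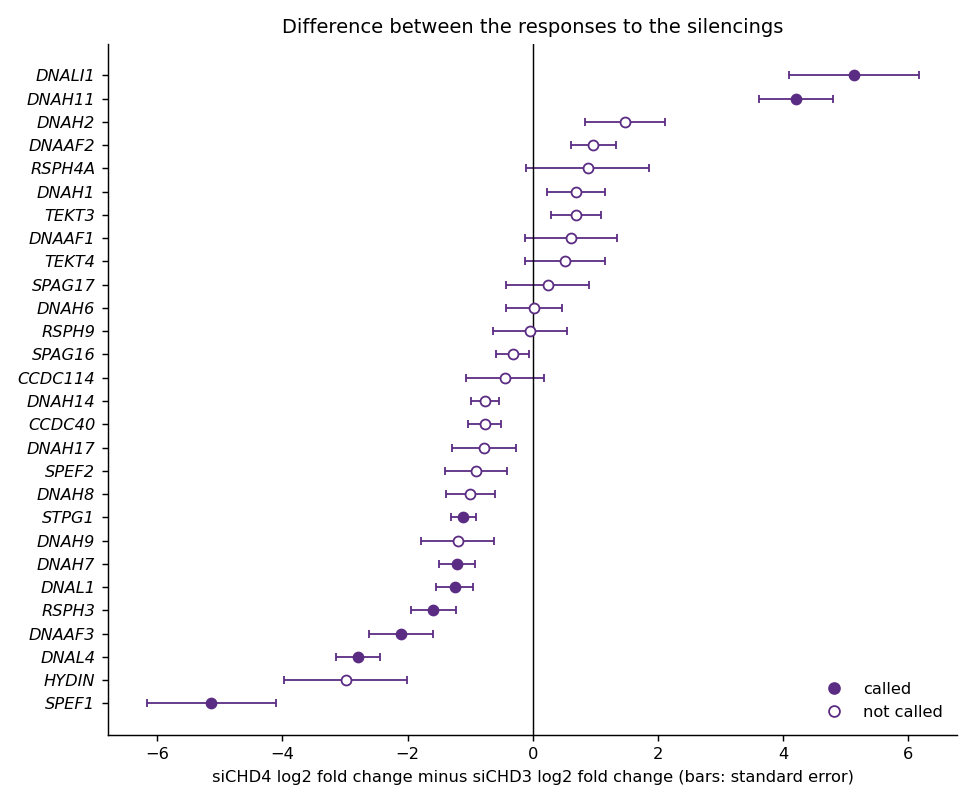
Log2 fold change in siCHD4 minus that in siCHD3, with its standard error, for the 28 genes tested over the 12 libraries. Filled points are called. DNALI1 (5.13) and DNAH11 (4.21) lie on the right, and SPEF1 (-5.14) and DNAL4 (-2.79) lie farthest left among those called.

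Genes of the same structures outside the 44 were read from 4 further lists. Of 74 symbols listed for other motile cilium genes, which include both older and newer names of some genes, 37 were tested in siCHD4. There 1 was called higher, CCDC164, a nexin-dynein regulatory subunit (0.0331 to 0.233 CPM, 2.91 ± 0.58, edgeR adjusted p = 0.0244). All siCtrl libraries of CCDC164, at 0.0317, 0.0132 and 0.0545 CPM, were under the filter's level, so it entered the test through siCHD4 (0.322, 0.209 and 0.168 CPM) alone. LRRC23, a radial spoke protein (-1.07 ± 0.22, edgeR adjusted p = 0.0272), and MNS1, an inner doublet protein (-1.68 ± 0.35, edgeR adjusted p = 0.0280), were called lower. These are 2.70% higher and 5.41% lower of the tested genes, beside 4.80% and 1.65% of all genes, and DESeq2 called 5 higher and 4 lower of 42. In siCHD3 ROPN1, a sperm fibrous sheath protein, was called higher (1.17 ± 0.19, edgeR adjusted p = 0.00105) and TCTE1, another nexin-dynein subunit, lower (-2.04 ± 0.53, edgeR adjusted p = 0.0169), of 31 tested. Each is 3.23% of the tested genes, beside 3.89% called higher and 4.33% called lower of all genes. The medians over the tested genes of this list were -0.35 in siCHD4 and -0.09 in siCHD3.

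Among the regulators of ciliogenesis, 10 of 15 were tested in each experiment. In siCHD4 RFX4 rose from 0.351 to 1.85 CPM (2.50 ± 0.45, edgeR adjusted p = 0.0176), while RFX2 fell from 10.3 to 3.60 CPM (-1.52 ± 0.24, edgeR adjusted p = 0.0108). MYB, which acts in multiciliated and in proliferating cells, fell in siCHD4 (-1.28 ± 0.26, edgeR adjusted p = 0.0251) and rose in siCHD3 (1.15 ± 0.23, edgeR adjusted p = 0.00405). The responses of MYB differed by -2.43 ± 0.36 (edgeR adjusted p = 0.000992) and those of RFX2 by -1.76 ± 0.32 (edgeR adjusted p = 0.00341). In siCHD3 TP73 also rose (1.28 ± 0.25, edgeR adjusted p = 0.00384) and CCDC78 fell (-1.42 ± 0.30, edgeR adjusted p = 0.00518). The responses of TP73 differed by -1.70 ± 0.43 (edgeR adjusted p = 0.0186). Of the 10 tested, 1 was called higher and 2 lower in siCHD4, beside 4.80% and 1.65% of all genes. In siCHD3 2 were called higher and 1 lower, beside 3.89% and 4.33%. In the difference 0 were called higher and 3 lower, beside 6.10% and 5.57%. With 10 genes tested, these counts are too small to compare with the shares of all genes.

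Intraflagellar transport and primary cilium genes, which most cell types use, were nearly all expressed, with 63 of 64 tested in siCHD4 and 62 in siCHD3. In siCHD4 51 of the 63 had a negative fold change (median -0.31), beside 9311 of all 17018 genes tested (median -0.06), and IFT172 was called lower (40.7 to 20.1 CPM, -1.02 ± 0.23, edgeR adjusted p = 0.0357). That is 1.59% of the tested genes, beside 1.65% of all genes, and 0 were called higher, beside 4.80%. In siCHD3 43 of the 62 had a positive fold change (median 0.25), beside 7819 of all 16115 (median -0.02), and BBS2, TCTN2, CLUAP1 and TTC30B were called higher, with BBS2 rising from 5.11 to 15.9 CPM (1.64 ± 0.17, edgeR adjusted p = 7.15e-05). TCTEX1D2, a light chain of the transport dynein, was called lower there (7.5 to 1.1 CPM, -2.77 ± 0.28, edgeR adjusted p = 5.32e-05). The siCHD3 calls are 6.45% higher and 1.61% lower of the tested genes, beside 3.89% and 4.33% of all genes. In the difference between the responses 10 of 62 were called lower (16.1%, beside 5.57% of all genes) and 2 higher (3.23%, beside 6.10%), with a median of -0.63 beside -0.06 over all genes tested. Cytoplasmic dynein and dynactin genes had medians of -0.13 over 20 genes in siCHD4 and 0.11 over 21 in siCHD3, where DYNC1I1 was called lower (-1.02 ± 0.17, edgeR adjusted p = 0.00116). DYNC1I1 is 4.76% of the genes tested there, beside 4.33% called lower of all genes.

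Markers of other cells were read in the same libraries. Summed melanocyte markers were at 20300 to 21500 CPM in siCHD4, above the siCtrl 1 to 3 range, and at 13000 to 17300 CPM in siCHD3. From siCtrl 1 to 3 to siCHD4 the means went up for TYRP1 (4260 to 6890 CPM), DCT (484 to 1030) and MLANA (781 to 1240). SOX10 went down (1090 to 612 CPM), PMEL stayed near its level (9650 and 9680), and TYR, MITF and S100B moved less. By edgeR 0 of the 8 were called in either experiment. Of the ciliated epithelium list, 7 of the 13 genes were tested in siCHD4, and its sum was carried by TUBB4A, at 698 CPM in siCtrl 1 to 3 and 513 in siCHD4. KRT18 averaged 4.37 CPM in siCtrl 1 to 3 and 8.19 in siCHD4, KRT8 4.79 and 6.95, KRT7 1.84 and 3.92, and CAPS 1.07 and 1.00. None of the 7 was called by edgeR or DESeq2 in siCHD4, and 0 had an unadjusted p under 0.05. In siCHD3 KRT18 fell from 5.03 to 2.37 CPM by DESeq2 (DESeq2 adjusted p = 0.0213) but was not called by edgeR (-1.10, edgeR adjusted p = 0.123). SNTN, a protein of the ciliary tip, was at 0 CPM in siCtrl 1 to 3 and averaged 0.0922 in siCHD4, and EPCAM was at 0 in siCHD4. The CHD3 experiment gave similar values, with SNTN at 0.00643 CPM in its controls and 0.0862 in siCHD3, and EPCAM at 0.0449 and 0.00788. Neither gene was tested in either experiment. The summed testis germ cell markers ranged from 0.0273 to 0.119 CPM in siCtrl 1 to 3 and from 0.0806 to 0.130 CPM in siCHD4. LUM of the fibroblast list was called higher in siCHD3 (10.5 to 21.8 CPM). The part of these markers in the values of the cilium genes was not tested.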

How the data were processed

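RNA from 501Mel cells was collected 72 h after siRNA transfection and sequenced as 12 libraries in 4 groups of 3. Tools listed by the submitters' processing notes, without roles, are TopHat2 2.0.10, Bowtie2 2.1.0 and 2.2.8, cutadapt 1.10, CASAVA 1.8.2, HTSeq and DESeq2, with the build hg19. The sources used here do not state whether counting was stranded. The authors deposited 2 tables with raw read counts per gene, and the tests rest on these counts. The normalized signal deposited by the authors is each library's counts over 1 factor for that library, and a further deposited signal is divided by gene length and was used only for the order of levels. Columns with the authors' fold changes and p-values were not used. Rows of counting remainders, which name no gene (5, all under siCHD3), hold no values and were left out, so their share of the reads is unknown. Depth was 38573214 to 102005319 counts per library, and intervals on ratios of summed counts are 95% exact binomial intervals that cover counting error only.

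Each table was fitted with edgeR 4.0.16 in R 4.3.3 (filterByExpr with its minimum count of 10, TMM, robust quasi-likelihood test), with Benjamini-Hochberg adjustment over all genes tested. Calls needed an adjusted p below 0.05 together with a log2 fold change beyond 1 in either direction. The SE printed after a log2 fold change is its absolute value over the square root of the test's F statistic, an approximation. The difference between the silencings was the interaction over the 12 libraries. The code was tested on simulated data. Genes named with values were every member called in a comparison, FOXJ1, STPG1, the DNAAF genes, DNAL1, DNAL4 and SPAG16, and in each role the 2 with most counts and the one with the largest fold change among those tested. Members past the adjusted p alone were named too, and of the other lists only genes called. The remaining members were added by name to account for all 44. The members and the lists were chosen with earlier results of these data known. Alternatives were DESeq2 1.42.0, its size factors in edgeR, no filter, no minimum fold, 1 fit over the 12 libraries, a replicate block and leaving out each library.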

Additional observations from a re-analysis of the deposited data

Results flagged for a closer look

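For 9 genes the response to CHD4 silencing differed from the response to CHD3 silencing by the test of the difference itself, as log2 fold change in siCHD4 minus that in siCHD3. The difference was positive for DNALI1 (5.13) and DNAH11 (4.21). It was negative for SPEF1 (-5.14), DNAL4 (-2.79), DNAAF3 (-2.11), RSPH3 (-1.59), DNAL1 (-1.25), DNAH7 (-1.21) and STPG1 (-1.11). DNALI1 reached the filter's level in the siCHD4 libraries alone, so the filter favoured the sign of its difference. For SPEF1 and DNAL4 the control sets themselves were far apart, at a mean of 0.740 and 0.0150 CPM and of 6.32 and 2.05 CPM in siCtrl 1 to 3 and siCtrl 4 to 6. For DNAAF3 the control means were 3.02 and 1.24 CPM, and for DNAH11 they were 0.141 and 0.348 CPM. For DNAL1 they were 12.8 and 11.9 CPM, and for STPG1 they were 9.57 and 7.80 CPM.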

How the results depend on the processing

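In siCHD4, where 3 genes were called higher and 2 lower, leaving out each replicate gave 1 to 6 higher and 1 to 5 lower, with 6 higher and 5 lower without siCtrl replicate 3 and 1 of each without siCHD4 replicate 1. The fit over 12 libraries and DESeq2 each gave 4 lower. In siCHD3, where 1 was called higher and 0 lower, leaving out each replicate gave 1 to 2 higher and 0 to 1 lower. There the fit over 12 libraries gave 2 higher (DNAL4 and SPEF1) and 1 lower (RSPH9), as did the fit with no filter, and with no minimum fold change 3 were higher. In the difference DESeq2 gave 4 higher against 2. Leaving out each replicate there gave 2 to 3 higher and 7 to 9 lower. For genes past the adjusted p threshold in the reported fits, 250 values under an alternative kept their direction and their status as called or not called. A further 8 lost the call, 6 gained it and 0 reversed. A call needs the fold threshold too, so genes past the adjusted p alone count as kept even where that p was lost. DNAH7 in siCHD4 lost it with no filter (edgeR adjusted p = 0.112), and SPEF2 in siCHD3 in the fit over 12 libraries (edgeR adjusted p = 0.126). DNAL1 in siCHD3 and DNAH14 in the difference also lost it in some alternatives and kept it in others. Over all 44 genes, alternatives added 39 calls that the reported fits lack, counting each gene in each alternative: 16 in siCHD4, 12 in siCHD3 and 11 in the difference, for 16 genes. The cause of these shifts was not tested.

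Over all genes the siCHD4 counts moved most, from 817 higher and 280 lower to 232 to 1551 higher and 29 to 536 lower when a replicate was left out, and to 1087 and 457 with DESeq2. The fit over 12 libraries gave 993 and 497 there. With no filter 411 were lower. In siCHD3 the count with no minimum fold change was 1856 higher and 1419 lower, against 627 and 698. In the difference, leaving out siCtrl replicate 3 gave 1618 higher against 1059. The labels do not say whether same-numbered siCtrl and siCHD4 libraries were paired. Deviations of same-numbered libraries from their group means correlated at 0.033, 0.020 and 0.023. Between libraries of unlike number the correlations ran from -0.124 to 0.108. With 3 libraries per group these values cannot settle whether cultures were paired. With a replicate block 3 genes were called higher and 2 lower, with 491 and 111 over all genes tested. No paired analysis was possible for siCHD3 because its controls carry other numbers. Members that stayed too low for the filter rest on a few counts per library, and most differences among them could not be resolved at this depth.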
